A study of Mus musculus with 21 samples.

Results

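The 7 connexin genes Gja5, Gja4, Gja1, Gjc1, Gjb5, Gjb2 and Gja3 were followed through all 7 groups of the study, out of 27968 genes listed for the sorted cells and 22899 listed for the cocultures. The genes were picked by symbol, and the list was chosen by someone who had seen their FPKM (fragments per kilobase, a level scaled by the length of the transcript and by the size of the library) in these same libraries. Their levels and differences are therefore given as a description, and no p-value is printed for them. Where such a gene is called higher or lower below, the call sorts it by set thresholds, which include an adjusted p. These calls are not used as evidence. Connexins are membrane proteins that assemble in rings of subunits, and the rings of neighbouring cells dock into gap junctions through which ions and small metabolites pass from cell to cell. In blood vessels Gja5 and Gja4 are the classical connexins of arterial endothelium, Gja1 is the most widespread connexin and is also found in stromal cells and embryonic stem cells, and Gjc1 is an early connexin of heart and vessel walls. Gjb2 and Gjb5 are known mainly from epithelia, and Gja3 from the lens.

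RNA-seq was available for 21 libraries, 3 per group. In 6 of them total cells were taken on day 5, after hematopoietic-like colonies made from mouse pluripotent stem cells (PSCs) in a 3D self-assembling peptide culture had been put on OP9 stromal cells pretreated with mitomycin C (3D+OP9) or on a gelatin coat of 0.1% without stromal cells (3D+0.1% gelatin). The other 15 came from sorted cells: mESC, the undifferentiated embryonic stem cells, sorted on SSEA-1; Lin- Sca-1+ c-kit+ cells (LSK) with or without CD201, the protein C receptor encoded by Procr, from day 5 of the OP9 coculture (D5-LSKCD201+ and D5-LSKCD201-); and LSKCD201+ cells from the bone marrow of mice 6 to 8 weeks old (BM-LSKCD201+) and from the liver of E12.5 embryos (FL-LSKCD201+). The stem cells and everything derived from them are labelled with the strain background 129/ola, although the methods of the study name embryonic stem cells of 129/ola and of C57BL/6 origin, and bone marrow and fetal liver were from C57BL/6 mice. By these labels strain and origin cannot be told apart. The ages of the animals are taken from the methods of the study and were not among the sample labels. OP9 cells are mouse cells too, and how many of them were among the total cells is not given in the sources used here.

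The sorted groups differed widely in their marker genes. The summed FPKM of 8 endothelial markers was 1712 to 1743 in D5-LSKCD201+, 72.4 to 77.8 in D5-LSKCD201-, 160 to 203 in FL-LSKCD201+ and 143 to 148 in BM-LSKCD201+. The sum of 8 pan-hematopoietic markers was 90.2 to 94.0 in D5-LSKCD201+ against 1311 to 1540 in FL-LSKCD201+ and 1608 to 1835 in BM-LSKCD201+. Ptprc, which encodes the pan-leukocyte antigen CD45, was nearly absent from D5-LSKCD201+ at 0.409 ± 0.167 FPKM, against 43.5 ± 7.54 in FL-LSKCD201+ and 66.8 ± 4.21 in BM-LSKCD201+, while the sort marker gene Procr was 59.7 FPKM in D5-LSKCD201+ and 3.48 FPKM in D5-LSKCD201-. D5-LSKCD201- cells held 3485 to 3916 FPKM of 8 naive pluripotency markers and 1433 to 1641 FPKM of 8 epithelial markers, against 24.5 to 32.8 and 27.5 to 31.3 in D5-LSKCD201+. The sum of 10 stromal markers was 94.6 to 100.4 FPKM in D5-LSKCD201+, 39.5 to 73.8 in D5-LSKCD201-, 8.24 to 9.72 in mESC, 12.4 to 15.4 in FL-LSKCD201+ and 7.06 to 7.89 in BM-LSKCD201+, where Lum was the 1 stromal marker at 0 in a whole group. D5-LSKCD201- replicate 2, FL-LSKCD201+ replicate 1, BM-LSKCD201+ replicate 1 and 3D+OP9 replicate 3 stood apart from the other libraries of their groups, with root mean square differences of 0.34 to 0.45 log2 units where the remaining pair of each group differed by 0.14 to 0.17. In bulk samples such as these, fewer cells of a type and less RNA per cell cannot be told apart.

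On GRCm38, Gja5 lies on the plus strand of chromosome 3 (96904693 to 97077416) and Gja4 on the minus strand of chromosome 4 (127311421 to 127314039), while Gjb5 lies on the same strand and chromosome as Gja4 (127354809 to 127358181). The RefSeq table of GRCm38.p6 held promoters for 6 of the 7 genes, and Gjc1 was not among them. The 250 bases before the transcript start are shown for the pair with the highest levels in D5-LSKCD201+ and for Gjb5, whose levels ran the other way, each read 5′ to 3′ along the strand of its gene. The window of Gja5 lies inside the annotated span of the gene, before the RefSeq start and not before the outermost start of that span. Capitals mark matches, on either strand, to any of 7 short motifs, which do not overlap in the windows shown. The RBPJ-type motif was searched as TGGGAA, the motif bound by ETS factors as AGGAAG, and that of SOX factors as ACAATG. The letters searched for GATA factors were AGATAA, those for the GC box were GGGCGG, those for the TATA box were TATAAA, and those for the E-box were CACGTG.
Gja5, chr3:97032152-97032401, plus strand: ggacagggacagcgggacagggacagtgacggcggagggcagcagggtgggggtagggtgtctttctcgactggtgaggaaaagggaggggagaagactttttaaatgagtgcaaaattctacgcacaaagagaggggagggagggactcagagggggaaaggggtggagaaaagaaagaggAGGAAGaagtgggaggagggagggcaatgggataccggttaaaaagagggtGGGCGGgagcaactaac
Gja4, chr4:127314040-127314289, minus strand: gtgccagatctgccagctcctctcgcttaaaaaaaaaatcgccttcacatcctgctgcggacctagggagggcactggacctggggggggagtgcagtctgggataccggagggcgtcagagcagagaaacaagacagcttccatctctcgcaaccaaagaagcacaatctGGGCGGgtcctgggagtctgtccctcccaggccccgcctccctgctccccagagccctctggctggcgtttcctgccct
Gjb5, chr4:127358165-127358414, minus strand: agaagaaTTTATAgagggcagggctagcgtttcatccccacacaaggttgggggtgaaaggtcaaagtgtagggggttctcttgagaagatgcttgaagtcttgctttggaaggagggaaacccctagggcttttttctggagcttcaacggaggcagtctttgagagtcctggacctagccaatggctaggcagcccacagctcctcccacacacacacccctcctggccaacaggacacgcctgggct
Gja5 held an ETS-type match that began 68 bases before the start and a GC box that began 17 bases before it. Gja4 held a GC box beginning 79 bases before its start, and Gjb5 held a TATA-type match on the opposite strand, 243 bases before its start. Of 32817 windows of the same length, 32.7% held the GC box, 29.5% the ETS-type and 12.4% the TATA-type letters. The RBPJ-type, SOX-type, GATA-type and E-box letters, held by 21.6%, 10.7%, 9.99% and 6.02% of the windows, were not in these 3 windows. The G and C content was 56.4% for Gja5, 61.2% for Gja4 and 54.4% for Gjb5, against a median of 52.4% over all windows. Each match is only a stretch of letters, and binding was not measured.

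Among the connexins read here, Gja5 had the highest level in D5-LSKCD201+. Its level in D5-LSKCD201+ was 132, 136 and 136 FPKM in the 3 libraries, a mean of 135 ± 2.11 (SD, n = 3), which placed it 751st of 27968 genes by level in that group. In D5-LSKCD201- it was 1.78, 0.655 and 2.40 FPKM, in FL-LSKCD201+ 0.344, 0.289 and 0.317 FPKM, in BM-LSKCD201+ 0.0752, 0.0965 and 0.114 FPKM and in mESC 0.0973, 0.0869 and 0.0599 FPKM. Every D5-LSKCD201+ library was above every other sorted library, and the mean was 83.8 times that of the next group, D5-LSKCD201-. The order below was D5-LSKCD201-, FL-LSKCD201+ and then BM-LSKCD201+ and mESC, whose ranges overlapped. The lowest D5-LSKCD201- value came from replicate 2, the library that stood apart.

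Gja4 had the same leading group. In D5-LSKCD201+ it was 110.4, 106 and 110.1 FPKM (mean 109 ± 2.41, 967th of 27968 genes), and in D5-LSKCD201- it was 4.47, 4.27 and 4.74 FPKM. The level in mESC was 0.557, 0.392 and 0.344 FPKM, in FL-LSKCD201+ 0.171, 0.403 and 0.577 FPKM and in BM-LSKCD201+ 0, 0.0756 and 0.0998 FPKM. The D5-LSKCD201+ mean was 24.2 times the D5-LSKCD201- mean, which in turn was 10.4 times the mESC mean, with no overlap at either step. The ranges of mESC and FL-LSKCD201+ overlapped, and BM-LSKCD201+ lay below both. The sum of the endothelial markers was highest in the same group as Gja5 and Gja4, and the part of endothelial cells in these levels was not tested.

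Gja1 was high in mESC and both day 5 groups and low in both native fractions. It reached 103, 99.98 and 109 FPKM in mESC, 123, 93.7 and 114 FPKM in D5-LSKCD201- and 69.7, 76.3 and 71.7 FPKM in D5-LSKCD201+. FL-LSKCD201+ had 7.89, 6.14 and 6.84 FPKM and BM-LSKCD201+ 2.13, 1.04 and 0.992 FPKM. The ranges of mESC and D5-LSKCD201- overlapped, D5-LSKCD201+ lay below both, and its mean was 10.4 times that of FL-LSKCD201+, which was 5.01 times that of BM-LSKCD201+. The highest BM-LSKCD201+ value was from replicate 1, the library that stood apart in that group.

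Gjc1 had a similar order at a lower level. It was 16.6, 16.2 and 17.3 FPKM in D5-LSKCD201-, 14.3, 13.4 and 12.5 FPKM in mESC and 4.89, 6.15 and 5.38 FPKM in D5-LSKCD201+. The levels in FL-LSKCD201+ were 0.376, 0.150 and 0.130 FPKM and those in BM-LSKCD201+ 0, 0.0881 and 0.0878 FPKM. None of the 5 groups overlapped for Gjc1, and the D5-LSKCD201+ mean was 25.0 times the FL-LSKCD201+ mean, or 39.0 times without FL-LSKCD201+ replicate 1, the library that stood apart. The sum of 8 cardiac and smooth muscle markers was also highest in D5-LSKCD201-, at 220 to 327 FPKM against 49.5 to 58.2 in D5-LSKCD201+, 8.52 to 16.5 in mESC and under 1 FPKM in both native fractions, and the part of such cells in the Gjc1 level was not tested.

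The epithelial connexins were highest in D5-LSKCD201-. Gjb5 was 11.2, 11.8 and 13.0 FPKM in D5-LSKCD201-, 7.88, 7.20 and 6.31 FPKM in mESC and 0.505, 0.263 and 0.344 FPKM in D5-LSKCD201+, where it was below the 0.805, 0.609 and 0.807 FPKM of FL-LSKCD201+ and overlapped the 0, 0.316 and 0.435 FPKM of BM-LSKCD201+. Gjb2 was 2.99, 3.12 and 2.86 FPKM in D5-LSKCD201- and 0.688, 0.835 and 0.772 FPKM in FL-LSKCD201+, was under 0.1 FPKM in every mESC and D5-LSKCD201+ library, and was listed at 0 in all 3 BM-LSKCD201+ libraries. Both genes thus had their top level in the group with the highest epithelial marker sum, which also had the highest sum of 7 trophoblast markers, at 74.6 to 88.9 FPKM against 1.67 to 18.4 in the other sorted groups. The naive pluripotency sum was 6311 to 6854 FPKM in mESC and 3485 to 3916 in D5-LSKCD201-, the groups where Gjb5 was above 1 FPKM, and the hepatocyte sum was highest in FL-LSKCD201+, where Gjb2 had its next highest level. The part of any of those cells in the result was not tested. Gja3 stayed under 0.3 FPKM in all 15 sorted libraries, with its highest values, 0.186, 0.267 and 0.280 FPKM, in D5-LSKCD201-, and it was listed at 0 in every FL-LSKCD201+ and BM-LSKCD201+ library.

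**Figure D1:**
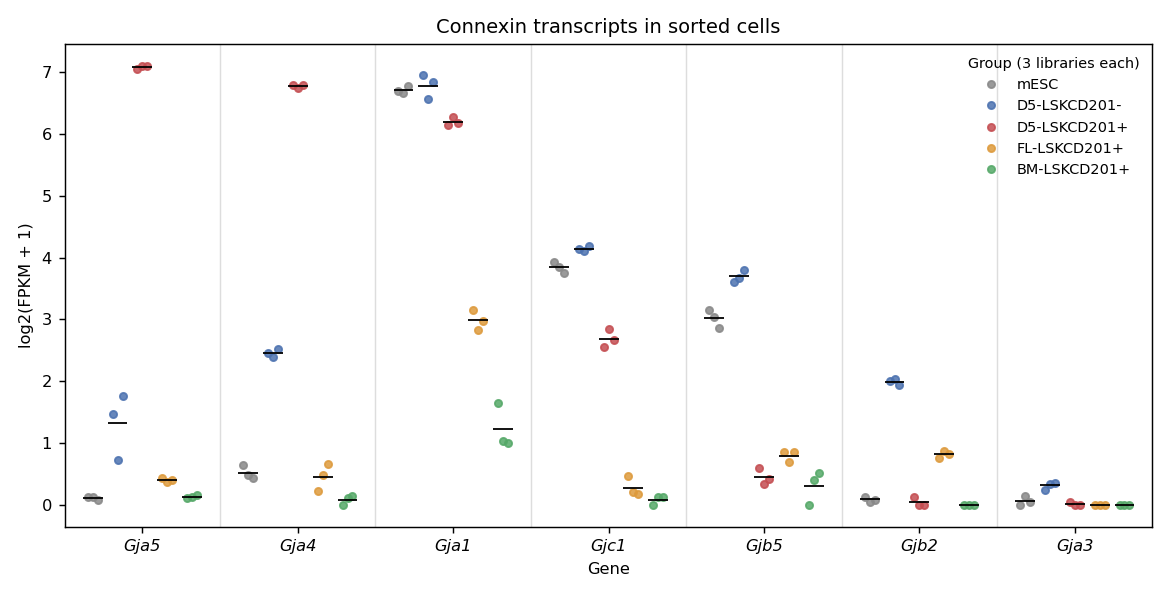
Level of the 7 connexin genes in the sorted cells, as log2(FPKM + 1) on the vertical axis, with 1 point per library and a line at the mean of the 3 libraries of a group. Gja5 and Gja4 stand far higher in D5-LSKCD201+ than in the other groups, Gja1 and Gjc1 are high in the mESC and both day 5 groups, and Gjb5 and Gjb2 have their top values in D5-LSKCD201-.

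The differences were put on a common scale with limma on log2(FPKM + 1), which understates the change of weakly expressed genes. Genes averaging 0.5 FPKM or more in the libraries compared were fitted. A gene was called where its Benjamini-Hochberg adjusted p over all fitted genes was under 0.05 and its log2 fold change was 1 or more in size. A gene that entered only through the group where it was high had to differ, so the counts below describe the selected genes and nothing is read from them. Against D5-LSKCD201-, 6 of the 7 genes were fitted: Gja5 and Gja4 were called higher in D5-LSKCD201+ (10.8% of all 13691 genes fitted were), and Gjb5, Gjb2 and Gjc1 were called lower (13.9% were). Gjb5 and Gjb2 averaged under 0.5 FPKM in D5-LSKCD201+, so they were fitted only through D5-LSKCD201- and could only be lower. The log2 fold change was 5.76 (SE 0.242) for Gja5, 4.32 (SE 0.0618) for Gja4, -3.25 (SE 0.109) for Gjb5, -1.95 (SE 0.0844) for Gjb2 and -1.46 (SE 0.0947) for Gjc1. Gja1, at -0.59 (SE 0.102), missed the fold threshold, although the libraries of the groups did not overlap. Without D5-LSKCD201- replicate 2 the Gja5 value was 5.47 and the Gja4 value 4.29.

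Against the undifferentiated mESC, which are labelled with the strain background of both day 5 groups, 5 genes were fitted for D5-LSKCD201+. Gja5 (6.97, SE 0.0526) and Gja4 (6.26, SE 0.0679) were called higher, as were 19.5% of all genes, and Gjb5 (-2.57, SE 0.104) and Gjc1 (-1.15, SE 0.0863) were called lower, as were 18.1% of all genes. Gja5 and Gja4 averaged under 0.5 FPKM in mESC, and Gjb5 did so in D5-LSKCD201+. Each was thus fitted only through the group where it was high, and its direction was fixed. For D5-LSKCD201- against mESC, Gja4 (1.94, SE 0.102), Gjb2 (1.91, SE 0.0859) and Gja5 (1.21, SE 0.244) were called higher among 6 genes fitted, where 10.9% of all genes were called higher and 3.48% lower. All of these called genes averaged under 0.5 FPKM in mESC, so they were fitted only through D5-LSKCD201- and could only be higher there. With a filter at 1 FPKM, Gja5 was not fitted in this comparison. The endothelial sum was 72.4 to 77.8 FPKM in D5-LSKCD201- against 21.6 to 23.4 in mESC and the epithelial sum 1433 to 1641 against 158 to 165, and the part of such cells in these differences was not tested. In the same comparison the log2 fold change was 0.68 for Gjb5, 0.30 for Gjc1 and 0.07 for Gja1. The Gja5 value was 1.51 without D5-LSKCD201- replicate 2. These comparisons share their mESC or day 5 libraries, so their values stand side by side and are not counted as separate evidence.

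Against the native stem cell fractions, Gja5, Gja4 and Gjc1 averaged under 0.5 FPKM in FL-LSKCD201+ and in BM-LSKCD201+, so they were fitted only through D5-LSKCD201+ and could only be higher there. The endothelial and stromal marker sums were higher in D5-LSKCD201+ too, and the part of such cells in these differences was not tested. Compared with FL-LSKCD201+, Gja5 (6.69, SE 0.0666), Gja4 (6.32, SE 0.117), Gja1 (3.21, SE 0.0978) and Gjc1 (2.41, SE 0.120) were called higher among 5 genes fitted, beside 15.1% of all genes called higher and 19.6% lower, and Gjb5 was at -0.35 (SE 0.102). Compared with BM-LSKCD201+, the same 4 genes were called higher among 4 fitted, with log2 fold changes of 6.95 (SE 0.0584) for Gja5, 6.70 (SE 0.0679) for Gja4, 4.98 (SE 0.171) for Gja1 and 2.61 (SE 0.103) for Gjc1, beside 17.5% of all genes called higher and 27.2% lower. Without BM-LSKCD201+ replicate 1 the Gja1 value was 5.19, and without FL-LSKCD201+ replicate 1 the difference of Gja1 from fetal liver was 3.30. Between the native fractions themselves, only Gja1 was high enough to be fitted. It was called higher in FL-LSKCD201+ than in BM-LSKCD201+ (1.76, SE 0.200), where 7.78% of all genes were called higher and 11.3% lower, and the value was 1.97 without BM-LSKCD201+ replicate 1 and 1.68 without FL-LSKCD201+ replicate 1. The sum of 7 hepatocyte markers was 372 to 598 FPKM in FL-LSKCD201+ against 6.18 to 9.78 in BM-LSKCD201+, and the stromal sum was higher in FL-LSKCD201+ as well. That stromal sum rested mainly on Postn, at a mean of 10.5 FPKM, the 1 stromal marker averaging at least 1 FPKM in FL-LSKCD201+. Of 4 stromal markers fitted, 1 was called higher in FL-LSKCD201+ and 1 lower, beside 7.78% and 11.3% of all genes. The part of hepatocytes or stromal cells in the Gja1 difference was not tested.

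**Figure D2:**
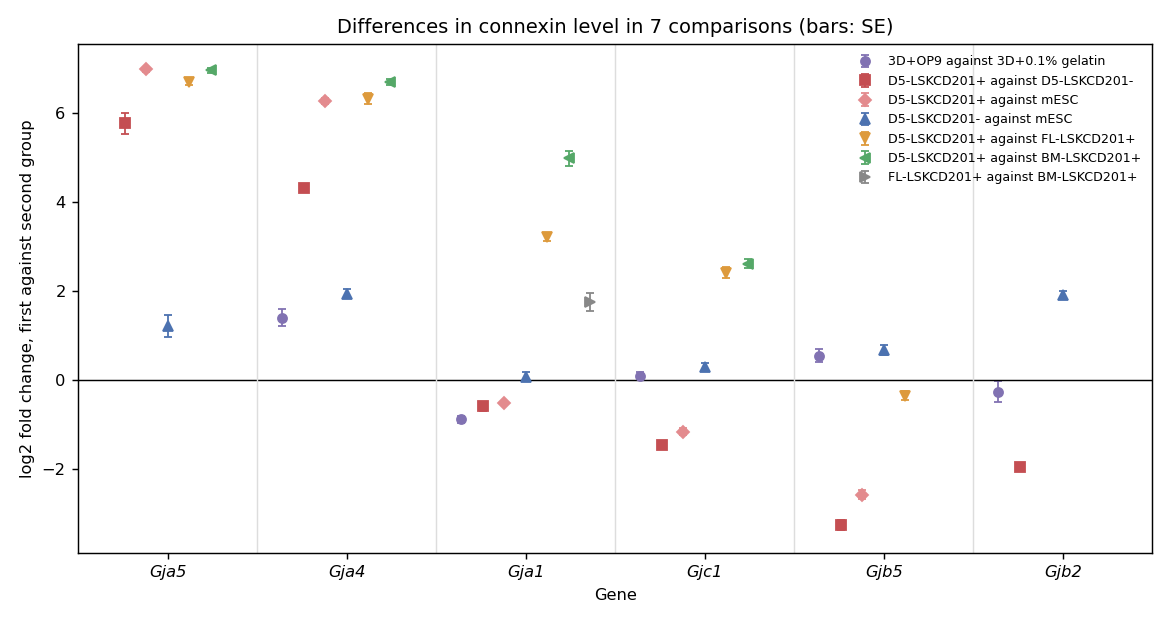
Log2 fold change of log2(FPKM + 1), first against second group, for the 6 connexin genes that were fitted in at least 1 comparison, with bars for the standard error from limma. Gja5 and Gja4 lie above 4 in all 4 comparisons that start from D5-LSKCD201+, Gja1 and Gjc1 are above 0 against fetal liver and bone marrow and below 0 against the mESC and D5-LSKCD201-, and Gjb5 is at or below -2.57 against the last 2 of these groups.

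In the cocultures the question was how the presence of OP9 stromal cells went with connexin levels in total cells. Gja4 was 3.19, 3.25 and 4.54 FPKM in 3D+OP9 and 0.96, 0.37 and 0.98 FPKM in 3D+0.1% gelatin, so that all OP9 libraries lay above all gelatin libraries. Its log2 fold change was 1.40 (SE 0.191), or 1.27 without 3D+OP9 replicate 3 and 2.19 with a pseudocount of 0.1, and it was the 1 gene called of 5 fitted, beside 2.11% of all 12958 genes called higher and 0.509% called lower. Gja1 went the other way, with 97.5, 86.8 and 93.8 FPKM in 3D+OP9 and 180.4, 179 and 155 FPKM in 3D+0.1% gelatin. These ranges did not overlap either, and the gelatin mean was 1.85 times the OP9 mean, but the log2 fold change of -0.88 (SE 0.0852) was under the fold threshold.

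None of the other 4 connexins fitted was called. Gjc1 was 27.9, 30.3 and 29.6 FPKM in 3D+OP9 and 26.9, 27.4 and 27.2 FPKM in 3D+0.1% gelatin, ranges that were separate but only 1.08 times apart in the mean. Gjb5 was 1.14, 1.56 and 1.68 FPKM against 0.65, 0.55 and 0.82 FPKM, also without overlap, and its OP9 mean was 2.17 times the gelatin mean. Its log2 fold change was 0.55 (SE 0.137), or 1.01 with a pseudocount of 0.1. Gjb2 overlapped, with 1.38, 1.88 and 0.51 FPKM in 3D+OP9 and 1.75, 1.58 and 1.48 FPKM in 3D+0.1% gelatin, and the lowest value was from 3D+OP9 replicate 3, which stood apart. Gja5 was at 0.02 to 0.13 FPKM in 3D+OP9 and 0.02 to 0.07 FPKM in 3D+0.1% gelatin, and Gja3 at 0.06 to 0.08 and 0.10 to 0.23 FPKM, without overlap. The table of total cells lists Gja5 under another kind of identifier than the table of sorted cells, and whether both entries cover the same transcripts is not given in the sources used here. Several marker lists moved with the culture surface: the endothelial sum was 86.0 to 102 FPKM in 3D+OP9 against 9.63 to 21.2 in 3D+0.1% gelatin, the stromal sum of 10 markers 74.3 to 85.5 against 44.8 to 55.8, the pan-hematopoietic sum 18.3 to 22.9 against 5.16 to 6.58, the sum of 8 cardiac and smooth muscle markers 71.0 to 105 against 221 to 247, and the epithelial sum 497 to 553 against 726 to 849. The naive pluripotency sum overlapped, at 848 to 1412.5 FPKM in 3D+OP9 against 1199 to 1295 in 3D+0.1% gelatin. Of its 8 markers 2 were called higher with OP9 and 0 lower, beside 2.11% and 0.509% of all genes. Not every marker followed its sum. Of 7 cardiac and smooth muscle markers fitted, 1 was called higher and 2 lower. Tagln averaged 26.9 FPKM with OP9 against 136, but Myl7 5.81 against 1.32. Of 5 pan-hematopoietic markers fitted, 4 were called higher and 0 lower, while Coro1a averaged 2.26 against 4.31 FPKM. Calls were 7 higher of 8 endothelial, 3 higher of 9 stromal and 0 of 8 epithelial markers, with 0 lower. No endothelial, stromal, cardiac, smooth muscle or epithelial marker was at 0 in a whole group, and the part of any of these cells in the Gja4 and Gja1 differences was not tested.

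**Figure D3:**
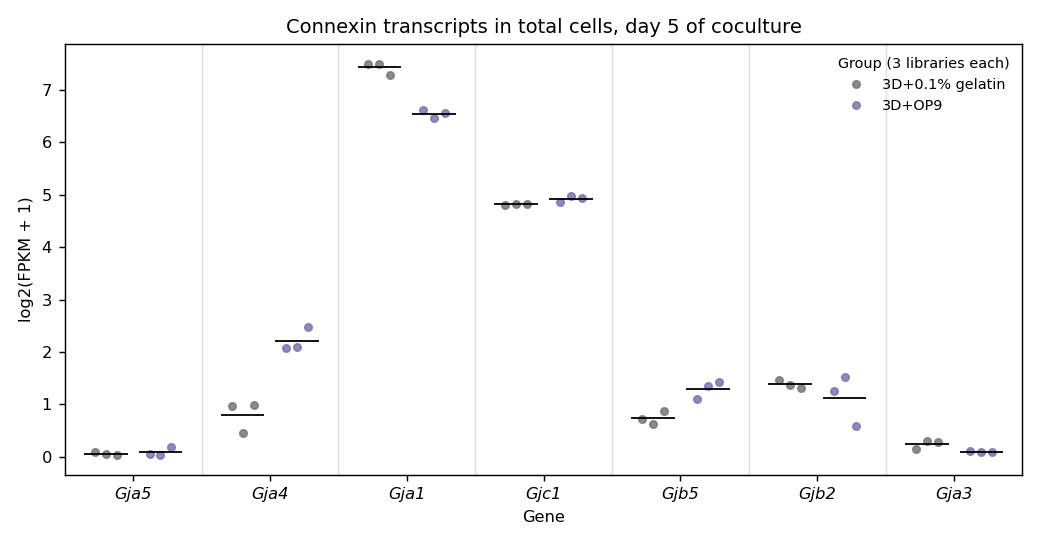
Level of the 7 connexin genes in total cells on day 5 of coculture, as log2(FPKM + 1), with 1 point per library and a line at the mean of the 3 libraries of a group. The 3D+OP9 points lie above the gelatin points for Gja4 and Gjb5 and below them for Gja1, and Gja5 is near 0 in all 6 libraries.

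As FPKM is scaled by transcript length, the levels of the 7 genes can be added within a library. The sum was 322 ± 3.54 FPKM in D5-LSKCD201+, 148 ± 16.0 in D5-LSKCD201-, 125 ± 3.60 in mESC, 9.38 ± 0.929 in FL-LSKCD201+ and 1.85 ± 0.310 in BM-LSKCD201+ (SD, n = 3 each). In D5-LSKCD201+, Gja5 made up 41.9%, Gja4 33.8%, Gja1 22.5% and Gjc1 1.70% of the sum. In mESC and D5-LSKCD201- the largest share was that of Gja1, at 83.1% and 74.2%, followed by Gjc1 at 10.7% and 11.4% and Gjb5 at 5.70% and 8.16%. Gja1 also had the largest share in the native fractions, where the sum was small, with 72.4% to 76.8% in FL-LSKCD201+ and 57.4% to 96.6% in BM-LSKCD201+. In total cells the sum was 129 ± 4.02 FPKM in 3D+OP9 and 202 ± 14.2 in 3D+0.1% gelatin, with Gja1 at 72.1% and 84.9% and Gjc1 at 22.8% and 13.5%. The tables of total and sorted cells were normalized separately, so sums are not compared across them.

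**Figure D4:**
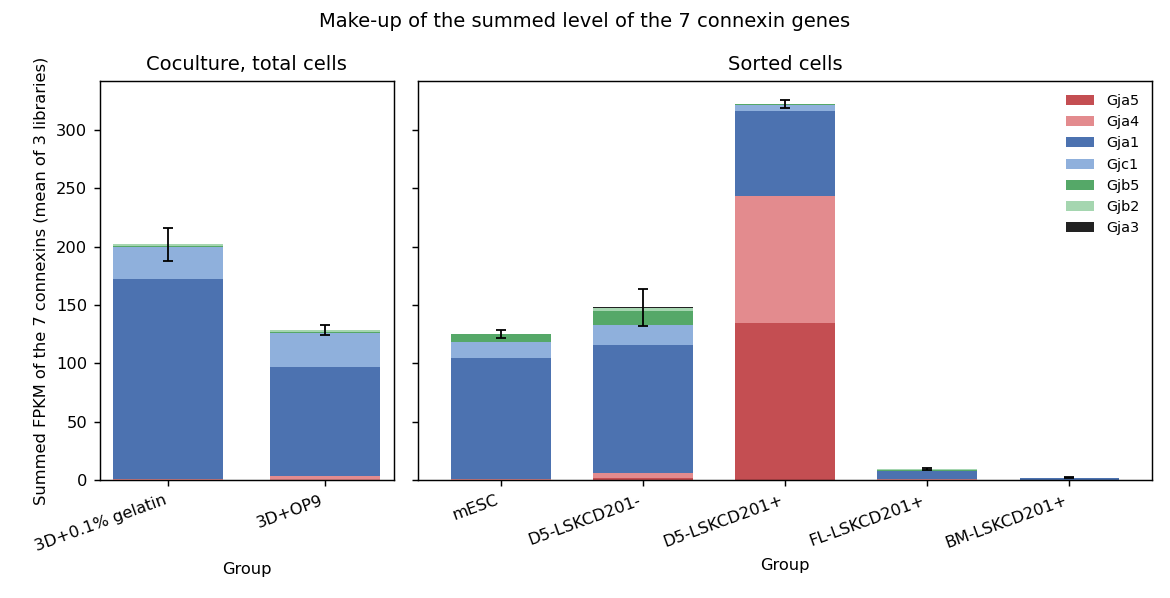
Summed FPKM of the 7 connexin genes per group, split by gene, as the mean of 3 libraries, with an error bar of 1 SD on the sum. In D5-LSKCD201+ the bar of 322 FPKM is made almost wholly of Gja5, Gja4 and Gja1, Gja1 fills most of the bars of mESC, D5-LSKCD201- and both cocultures, and the bars of fetal liver and bone marrow are short.

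Of 10 further connexins read alongside, 8 were listed for sorted cells, and the 1 high enough to be fitted there was Gjb1, a connexin of liver and myelinating cells. It was 1.73 to 1.94 FPKM in mESC and 0 to 0.158 FPKM in D5-LSKCD201+, a log2 difference of -1.40 (SE 0.0862). Gjb1 was 2.01 to 2.74 FPKM in FL-LSKCD201+, with a log2 difference of -1.63 for D5-LSKCD201+ minus fetal liver and of 1.70 (SE 0.129) for fetal liver minus bone marrow. In these 3 comparisons, and in D5-LSKCD201- against mESC, Gjb1 was fitted only through the group where it was high and had to differ, so no p-value is given. The part of hepatocytes in the Gjb1 difference was not tested either. The log2 difference of Gjb1 in D5-LSKCD201- against mESC was -0.99 (SE 0.144), just short of the fold threshold. Gjb1 itself was called there when mESC replicate 1 or 2 or D5-LSKCD201- replicate 1 or 3 was left out. In the cocultures 0 of the 2 fitted were called by limma, and 0 had an unadjusted p under 0.05. Of all genes fitted there, 2.11% were called higher and 0.509% lower, so nothing is read from a count over 2 genes.

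Pannexins form membrane channels of similar shape that open to the outside of the cell. Panx1 was the 1 pannexin of 3 fitted in sorted cells. It was 5.16 to 5.91 FPKM in D5-LSKCD201+, below FL-LSKCD201+ at 13.0 to 18.2 FPKM (-1.31, SE 0.128, limma adjusted p = 9.1e-05) and BM-LSKCD201+ at 21.6 to 25.2 FPKM (-1.91, SE 0.0816, limma adjusted p = 4.0e-07), and so ran against the direction of Gja1 and Gjc1 between the same groups. Against D5-LSKCD201- its difference was -0.29 (SE 0.0885, limma adjusted p = 0.021), under the fold threshold.

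The list of gap junction partners held 16 scaffold, adhesion, trafficking and regulatory proteins. Of the 16 fitted in D5-LSKCD201+ against D5-LSKCD201-, 6 rose, 3 fell and 7 were not called, where 10.8% and 13.9% of all genes were called higher and lower, with a median log2 fold change of 0.33 against -0.12 over all genes. Between these groups the endothelial marker sum was higher and the epithelial sum lower in D5-LSKCD201+, and the part of such cells was not tested. Cdh5, the adherens junction cadherin of endothelium, was 70.8 ± 3.02 FPKM against 2.31 ± 0.205 (4.44, SE 0.0774), and Cav1, the caveolar coat protein, was 218 ± 2.84 against 12.1 ± 2.67 FPKM (4.08, SE 0.131, limma adjusted p = 4.0e-07). The study had itself named Cdh5 as higher in these LSKCD201+ libraries, so no p-value is given for it here. Cdh5 is also among the endothelial markers, so that marker sum and the count of partners share this gene. Cdh1, the epithelial cadherin, was 0.759 ± 0.209 against 72.6 ± 21.5 FPKM and fell by 5.35 (SE 0.232, limma adjusted p = 1.5e-06), and Tjp3, a tight junction scaffold, was fitted only through D5-LSKCD201-, at 9.36 ± 0.804 FPKM against 0.237 ± 0.0309. Against FL-LSKCD201+ 9 of 16 were higher and 1 lower, beside 15.1% and 19.6% of all genes, and against BM-LSKCD201+ 10 of 15 were higher and 1 lower, beside 17.5% and 27.2%. Of those calls, 3 and 5 were of genes averaging under 0.5 FPKM in the lower group. Dbn1, the actin-binding protein drebrin that binds Gja1, was 142 ± 0.894 FPKM in D5-LSKCD201+, 3.44 ± 0.186 in FL-LSKCD201+ (5.01, SE 0.0660, limma adjusted p = 2.7e-08) and 1.88 ± 0.473 in BM-LSKCD201+ (5.64, SE 0.110, limma adjusted p = 8.7e-09), and Tjp3 was the 1 lower gene both times.

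Against mESC, 8 of the 16 partners were higher in D5-LSKCD201+ and 3 lower, beside 19.5% and 18.1% of all genes, and 5 were higher in D5-LSKCD201- and 0 lower by limma, where 10.9% and 3.48% of all genes were. Of those 11 and 5 calls, 3 (Tjp3, Cav2 and Cdh5) and 2 (Cav2 and Cdh5) were of genes averaging under 0.5 FPKM in the lower group. In the cocultures 1 of 16 was higher with OP9, Cdh5 at 28.5 ± 3.38 against 1.73 ± 0.965 FPKM (3.49, SE 0.253, limma adjusted p = 0.00073), and 1 lower, the tight junction protein gene Ocln at 1.297 ± 0.561 against 3.70 ± 0.892 FPKM (-1.04, SE 0.213, limma adjusted p = 0.029). Of all genes fitted there, 2.11% were called higher and 0.509% lower. The count of partners called became 1 when 3D+OP9 replicate 1 or 2 or 3D+0.1% gelatin replicate 2 or 3 was left out. Between fetal liver and bone marrow 2 of 13 were higher in fetal liver, Ocln (2.20, SE 0.190, limma adjusted p = 8.6e-05) and Cdh5, which was fitted only through fetal liver at 1.13 ± 0.441 FPKM against 0.0359 ± 0.0328, beside 7.78% of all genes. That count was 4 without FL-LSKCD201+ replicate 1 and 1 without BM-LSKCD201+ replicate 1, FL-LSKCD201+ replicate 2 or FL-LSKCD201+ replicate 3.

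Since Gja5 and Gja4 are arterial connexins, 24 other genes of arterial endothelium were read alongside. The study had itself named most of them as higher in these LSKCD201+ libraries, namely Sox7, Sox18, Hey1, Dll4, Notch1, Notch4, Efnb2, Vegfc, Epas1, Igfbp3, Cd93, Ets1, Nos3 and Mecom, as well as Gja4, so the counts of this list are not independent evidence of its direction. In D5-LSKCD201+ 19 of 24 were higher than in D5-LSKCD201- and 0 lower, beside 10.8% and 13.9% of all genes, with a median log2 fold change of 2.62 against -0.12 over all genes. The endothelial marker sum was also higher in D5-LSKCD201+ and the epithelial sum lower, and the part of such cells in these counts was not tested. The largest differences were those of Nos3, the endothelial nitric oxide synthase, at 117 ± 1.66 against 3.26 ± 1.40 FPKM (4.85, SE 0.241), Sox18, an endothelial transcription factor, at 233 ± 1.15 against 9.57 ± 0.576 FPKM (4.47, SE 0.0581), and Dll4, a Notch ligand of arteries, at 39.3 ± 0.560 against 1.14 ± 0.184 FPKM (4.24, SE 0.0901). As the study had named each of them as higher in these libraries, no p-value is given for these differences. Against FL-LSKCD201+ 20 of 24 were higher, beside 15.1% of all genes, and against BM-LSKCD201+ 20 were higher and 1, Cxcr4, was lower, beside 17.5% and 27.2%. Of those calls, 5 and 11 were of genes averaging under 0.5 FPKM in the lower group, as was 1 of the 19, Bmx, against D5-LSKCD201-. Against mESC, where 9 of the 20 calls were of such genes, 19 were higher and 1 lower, beside 19.5% and 18.1%, the flow-responsive factor gene Klf2 at 52.3 ± 0.674 against 143 ± 1.35 FPKM (-1.43, SE 0.0319, limma adjusted p = 5.0e-10).

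Sox17, an arterial endothelial and endodermal transcription factor, parted from Gja5 and Gja4 in the cells without CD201. It was 98.5 ± 7.90 FPKM in D5-LSKCD201- and 0.599 ± 0.0995 in mESC (5.96, SE 0.0941, limma adjusted p = 1.3e-07), close to the 121 ± 6.88 FPKM of D5-LSKCD201+, while Gja5 and Gja4 in D5-LSKCD201- stood at means of 1.61 and 4.49 FPKM. In all, 11 of 22 arterial genes had a higher level in D5-LSKCD201- than in mESC by limma, and 0 a lower one, beside 10.9% and 3.48% of all genes, and 8 of the 11 averaged under 0.5 FPKM in mESC. In the cocultures 7 of 23 arterial genes were higher with OP9 and 1, Igfbp3, was lower at 53.8 ± 17.7 against 139 ± 13.5 FPKM (-1.41, SE 0.240, limma adjusted p = 0.015), beside 2.11% and 0.509% of all genes. Of the 8 calls, 4 were of genes averaging under 0.5 FPKM on gelatin, namely Dll4, Acvrl1, Cd93 and Nos3. The 8 calls became 5 without 3D+0.1% gelatin replicate 2 and 12 without 3D+OP9 replicate 3. Between fetal liver and bone marrow, where Gja5 and Gja4 stayed under 0.6 FPKM, 5 of 16 were higher and 3 lower in fetal liver, beside 7.78% and 11.3% of all genes, and 3 of the 5 higher genes, Sox17, Bmx and Nos3, were fitted only through fetal liver.

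The genes whose pattern over the 15 sorted libraries was most like that of each connexin were ranked among 14457 genes by the root mean square difference of their log2 values, each centred on its own mean. Nearest to Gja4 were Hapln1, a link protein of hyaluronan matrix, at 0.17 log2 units, Sparcl1, a matricellular protein gene, at 0.18, Ushbp1 at 0.21, Oit3 at 0.24 and Ednrb, an endothelin receptor gene, at 0.32. Nearest to Gja5 were Ednrb at 0.39, Cldn5, the claudin of endothelial tight junctions, at 0.41, Chrdl1 at 0.49, Hapln1 at 0.50 and Clec14a, an endothelial lectin gene, at 0.52. Gja1 was most like Mdk, the growth factor midkine, at 0.41, and Gjc1 most like Pcna-ps2, a pseudogene, at 0.29. Gjb5 was most like Dpys at 0.20, with Prdm14, a pluripotency and germ cell regulator, at 0.24, and Gjb2 was most like Habp2 at 0.19, with Lgr5, a stem cell receptor of epithelia, at 0.26. Gja3 was under 1 FPKM in every group and was not ranked. All values share the same libraries and the same 5 group means, so they describe likeness in these samples.

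The annotation places Gja1 on the plus strand of chromosome 10 (56377330 to 56402513), Gjc1 on the minus strand of chromosome 11 (102799579 to 102819700), and Gja3 (57034460 to 57058100) and Gjb2 (57098600 to 57104702) next to each other on the minus strand of chromosome 14. In Gja1, Gja3, Gja4, Gjb2, Gjb5 and Gjc1 the coding sequence lies within 1 exon. The counting is not stated to use strand.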

How the data were processed

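Per the labels and the study's methods, libraries of TRIzol-extracted RNA from mouse cells were made with an mRNA kit and sequenced, reads were aligned to GRCm38 with HISAT2 2.0.5, and transcripts were assembled and quantified with StringTie 1.3.3. The submitters' processing notes also name Cuffdiff 1.3.0 and a second build, mm9. The authors deposited FPKM values per gene and library in 2 tables, one for total cells and one for sorted cells, each normalized on its own, and tests never crossed them. In the table of total cells 3578 of 22899 genes were blank in all 6 libraries. Read counts were not used here, so depth is unknown and the precision of a value is that of 3 libraries. The study calls the replicates of the sorted groups biological. The labels do not say whether they came from separate cultures or animals, and p-values measure the spread between these samples, which may be technical in part. With 3 against 3 libraries an exact permutation test cannot go below p = 0.1.

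Groups came from the sample labels, and no value column was left unmapped. Values were transformed to log2 after adding a pseudocount of 1. Genes averaging 0.5 FPKM or more were fitted with limma 3.58.1 under R 4.3.3, two-sided and with its trend option, and p-values were adjusted by Benjamini-Hochberg over all fitted genes. A call needed adjusted p under 0.05 together with a log2 fold change of 1 or more in size. The code was tested on simulated data. Some other connexin genes are not reported here, so levels were summed over the 7 selected genes. The selected genes and all gene lists were chosen with earlier results of these data known. Named are the 7 genes in every group, and from each other list at most the 3 called genes with the largest rise and fall per comparison. The fits were repeated with the replicate number as a block, with each library left out in turn, with 1 fit for all 5 sorted-cell groups, with quantile-normalized values, without the trend, with the filter removed or set to 1 FPKM, and with a pseudocount of 0.1. All log2 fold changes and p-values in the results come from unpaired fits, and the replicate block was only such a repeat. Deviations of same-numbered libraries were correlated over 0.1 in all 3 pairs of FL-LSKCD201+ and BM-LSKCD201+ (0.242, 0.202 and 0.159 across genes). These groups came from embryos and from grown mice, so no animal gave both. Fetal liver replicate 2 with bone marrow replicate 3 (0.205) and 3 with 2 (0.162) correlated as much, so these values set replicate 1 apart from the others and do not tell 2 from 3. In 3D+OP9 against 3D+0.1% gelatin they were 0.182, 0.072 and 0.291, and at least 1 pair was under 0.1 in each other comparison too, and the labels give no shared source. Gene positions are from GENCODE M21 on GRCm38, and promoters from RefSeq on GRCm38.p6, matched by symbol. Tables and figures were made with Python 3.11.15, pandas 2.3.3, numpy 2.4.6 and matplotlib 3.10.9.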

Additional observations from a re-analysis of the deposited data

How the results depend on the processing

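With a filter at 1 FPKM, Gja5 was not fitted in D5-LSKCD201- against mESC, so its call as higher was lost there. The number of selected connexins called was still within 1.5 times in all 7 comparisons under every alternative. Their log2 fold changes moved by more than 1 SD in 24 of 32 cases with a pseudocount of 0.1, which raised that of Gja5 in D5-LSKCD201+ against D5-LSKCD201- from 5.76 to 6.47 and that of Gja4 from 4.32 to 4.57, and in 3D+OP9 against 3D+0.1% gelatin that of Gja4 from 1.40 to 2.19 and that of Gjb5 from 0.55 to 1.01, and in 11 of 32 cases with quantile normalization. Quantile normalization took the median of all genes from -0.23 to -0.03 for D5-LSKCD201+ against BM-LSKCD201+ and from -0.12 to -0.02 for D5-LSKCD201+ against D5-LSKCD201-. It took that median further from 0 for D5-LSKCD201+ against mESC (-0.07 to -0.13) and D5-LSKCD201- against mESC (0.05 to -0.09). The same held for 3D+OP9 against 3D+0.1% gelatin (0.01 to -0.02). Counts for the other lists moved in few cases. In 3D+OP9 against 3D+0.1% gelatin, with no filter on low values 1 gap junction partner was called in place of 2 and 5 arterial genes in place of 8, and leaving out each library gave 1 to 2 partners and 5 to 12 arterial genes. In D5-LSKCD201+ against mESC, 0 other connexins were called in place of 1 with a filter at 1 FPKM, where Gjb1 was not fitted. In D5-LSKCD201- against mESC, 1 other connexin was called in place of 0 with a pseudocount of 0.1 and 1 with quantile normalization, and 0 to 1 with a library left out. In FL-LSKCD201+ against BM-LSKCD201+, 5 partners were called with a pseudocount of 0.1 and 1 with a filter at 1 FPKM, in place of 2, and 1 to 4 with a library left out. The cause of these shifts was not tested. With the replicate block, the fit called 2 partners in FL-LSKCD201+ against BM-LSKCD201+, and over all genes it called 2607 in place of 2581 there, 379 in place of 339 in 3D+OP9 against 3D+0.1% gelatin and 3381 in place of 3379 in D5-LSKCD201+ against D5-LSKCD201-, and it changed no other count by over 1.5 times. Weak genes such as Gja3, and the native levels of Gja5 and Gja4, are limited by a depth that is unknown.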

Other observations

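Gja5 stood at 135 ± 2.11 FPKM in D5-LSKCD201+ and at 0.06 ± 0.0608 FPKM in the total cells of 3D+OP9, the kind of culture from which D5-LSKCD201+ cells were sorted (3 libraries each). The ratio of these means, 2248, rests on values near 0 and was 5394 without 3D+OP9 replicate 3, a check added after seeing the data. It ranked first among the 987 genes with at least 100 FPKM in D5-LSKCD201+ whose symbol occurs once in both tables, and none of the 987 was listed at 0 in all 3D+OP9 libraries. The ratio was 313 for Cldn5, the gene ranked next, and 29.7 for Gja4, which ranked 29th, against a median of 1.78. Of the endothelial markers nearest to Gja5 in level, Emcn at 124 FPKM had a ratio of 72.2 and Kdr at 137 FPKM one of 5.82. The tables were normalized separately and list genes under different identifiers, and whether both Gja5 entries cover the same transcripts is not given in the sources used here, so these ratios are a description without a test.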
